A study of Homo sapiens with 25 samples.

Results

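The transcripts described here are 10 immediate early genes of the AP-1 and EGR families: FOS, FOSB, FOSL1, JUN, JUNB, JUND, ATF3, EGR1, EGR2 and EGR3. They were chosen by their RIP levels in control and arsenite libraries, as transcripts induced by arsenite, from the 20044 protein-coding genes of the count tables, and all 10 were among the 8734 that passed the filter on low counts. RNA that co-purified with mCherry-tagged IGF2BP1, an RNA-binding protein, was sequenced (RIP-seq) from HCT116, a human colorectal carcinoma cell line. Every mCherry line carried Tet-OsTIR1-PURO and knockouts of IGF2BP2 and IGF2BP3, and expressed wild-type (WT) IGF2BP1, one of the phosphomimetic mutants S181E and Y396E, or the RQ mutant, in which arginines of the first disordered linker are glutamines. Cells received PBS (control) or 500 µM sodium arsenite for 2 h, an oxidative stress, with 3 libraries for each line and treatment but 2 for RQ in arsenite. Parental HCT116 cells, without the fusion protein and with IGF2BP2 and IGF2BP3, gave 1 background library per treatment. The lines were lentiviral populations sorted in a narrow mCherry gate rather than single clones, and the dishes of a line were plated and grown independently.

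Immediate early genes are transcribed within minutes of a stimulus from factors already present in the cell, without new protein synthesis. FOS and JUN proteins pair through leucine zippers to form AP-1, which binds DNA at TGANTCA and related sites, and the zinc-finger EGR proteins bind GC-rich elements. Serum response factor with its ELK partners, acting at CArG boxes, and CREB or ATF factors, acting at cyclic AMP response elements, are the classical activators of this class, and many of its mRNAs carry AU-rich elements in the 3′ UTR that shorten their life.

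Promoter stretches of EGR1, FOS, FOSB and JUND are shown because these windows, from 250 bases before to 50 bases after the start site (RefSeq, GRCh38.p14), held the motifs named for this class. Of the 10 genes, 8 were in the promoter table, which did not list FOSL1 and EGR3. Capitals mark the CArG boxes and the core of the cyclic AMP response element (TGACG, or CGTCA on the other strand) in EGR1, the core and TATAAA in FOS and FOSB, and the full element TGACGTCA, which contains the core, in JUND. The EGR1 stretch is chr5:138465339-138465419 (plus strand), FOS is chr14:75278758-75278807 (plus), FOSB is chr19:45467930-45467979 (plus) and JUND is chr19:18281703-18281827 (minus), each lying just upstream of the annotated gene.
EGR1: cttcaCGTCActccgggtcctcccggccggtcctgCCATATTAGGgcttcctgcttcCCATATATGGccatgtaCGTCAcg
FOS: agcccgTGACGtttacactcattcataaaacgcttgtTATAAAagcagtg
FOSB: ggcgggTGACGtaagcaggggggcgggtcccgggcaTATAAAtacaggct
JUND: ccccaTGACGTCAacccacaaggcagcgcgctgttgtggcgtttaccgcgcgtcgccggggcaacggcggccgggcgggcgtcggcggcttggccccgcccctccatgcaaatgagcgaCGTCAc

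Each motif was searched on both strands. A CArG box was found in 1 of the 8 windows, that of EGR1, which held 2, against 1.29% of 27305 promoters. The core TGACG was in 6 of the 8 (FOS, FOSB, JUN, JUNB, JUND and EGR1), against 25.0% of all promoters, and the full element TGACGTCA in JUND alone, against 1.98%. TATAAA was in FOS, FOSB and JUNB, against 11.95%. The AP-1 element TGANTCA was in none of the 8, against 7.76%, and the EGR element GCGNGGGCG in EGR1, against 9.28%. These are matches of letters in a short window and not mapped binding sites. Only the first listed window of each gene was searched, so elements further upstream or at other start sites were not. The EGR2 window (chr10:62819118-62819417, minus strand) lay wholly upstream of the annotated gene, whose upstream end is at 62818659.

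The 3′ UTR differed widely within the family. Short windows around an AU-rich pentamer (ATTTA, in capitals) are shown for FOS, at bases 633 to 662 after the stop codon, for EGR2 (766 to 795) and for JUND (414 to 443), since these 3 have overlapping, separate and single copies.
FOS: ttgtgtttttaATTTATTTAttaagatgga
EGR2: cATTTAtgatctcagaggttaacttATTTA
JUND: tcgattctgccctATTTAtgtttctactcg

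All 10 had at least 1 ATTTA in the 3′ UTR of the MANE Select transcript (GENCODE), as did 76.5% of 8621 tested genes with such a transcript. FOS had 5 in 806 bases, or 6.20 per kb, at the 95.8th percentile of those genes, and EGR1 had 1 in 1222 bases, or 0.818 per kb. The tetramer CAT followed by A, C or T, which in RNA is part of a recognition sequence described for IGF2BP proteins, was less dense than usual: the median of the 10 was 7.61 per kb against 11.6 per kb over all genes. JUND was lowest at 1.34 per kb and FOS highest at 16.1 per kb.

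The 23 mCherry libraries held between 22246381 and 60273548 counts, and the parental libraries 1238013 (control) and 18942497 (arsenite). IGF2BP1 reads were 0 in both parental libraries and 37.2 to 123 CPM (counts scaled to library size) in every mCherry library, so the bait transcript followed the labels. Reads of IGF2BP2 (130.9 to 294 CPM) and IGF2BP3 (147 to 429 CPM) were still present in the knockout lines, so RNA counts do not check those knockouts. IGF2BP3 was higher than in WT in S181E control (log2 fold change 0.78, edgeR adjusted p = 2.8e-07) and Y396E control (0.64, 2.2e-06). It was not called against WT in arsenite or in RQ. IGF2BP2 was called lower than in WT only in Y396E arsenite (-0.38, edgeR adjusted p = 0.046). The bait transcript IGF2BP1 was higher in RQ than in WT in control (log2 fold change 0.74, edgeR adjusted p = 0.00050) and in arsenite (1.02, adjusted p = 9.5e-05). It was also higher in Y396E than in WT in control (0.50, edgeR adjusted p = 0.0027) and in arsenite (0.41, 0.010), and higher in Y396E than in S181E (0.49, 0.011, and 0.36, 0.045), whereas S181E was not called against WT (0.01 and 0.04). The part of the bait, IGF2BP2 and IGF2BP3 levels in the differences between lines was not tested. In the mCherry libraries, 6 of 7 markers of a colon epithelial line exceeded a median of 10 CPM. The 7 summed to 800.3 to 1515 CPM in control and 1752 to 2668 CPM in arsenite. Fibroblast markers there summed to at most 14.1 CPM, leukocyte markers to 1.61 and endothelial markers to 2.32. In the parental libraries the epithelial sum was 2445 (control) and 3816 CPM (arsenite). Fibroblast markers reached 32.8 CPM in parental arsenite and endothelial markers 24.3 CPM in parental control. The share of counts from mitochondrial rRNA was 31.8 to 38.2% in control and 22.2 to 30.1% in arsenite libraries, and its part in the arsenite differences was not tested.

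In arsenite, 8 of the 10 transcripts were more than 2-fold higher in the RIP of all 4 lines, as were 8.9% of the tested genes, and FOSL1 and JUND were not. Since the genes were chosen for this contrast, their arsenite levels are given as a description without a test. A RIP level can rise because the transcript became more abundant or because more of it was bound. It can also rise because more was recovered as background without the fusion, as in the parental RIP below. These cannot be told apart here. A lower level in a bulk library likewise cannot be split into fewer cells and less RNA per cell. All levels are CPM after TMM scaling (an edgeR method that corrects for library composition).

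**Figure D1:**
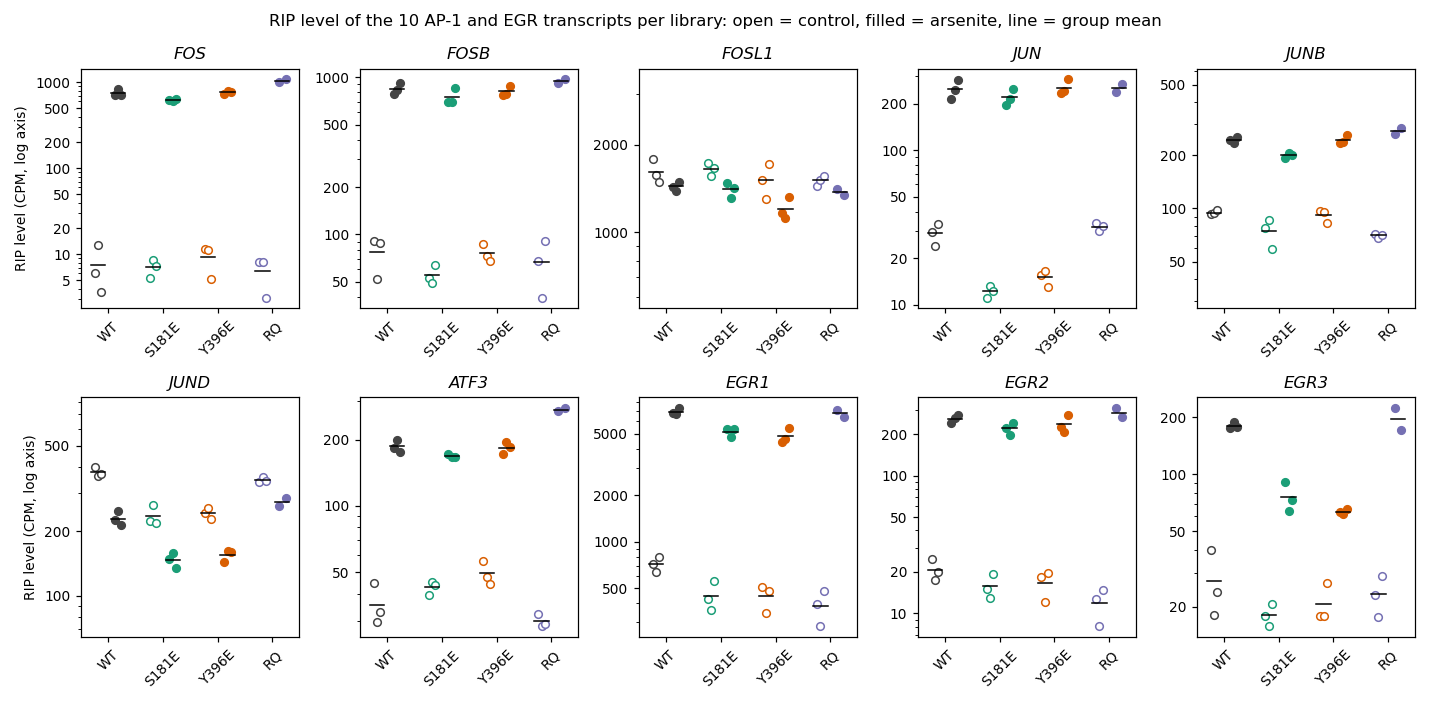
RIP level (CPM, log axis, a separate scale in each panel) of each transcript in every mCherry library, by line, with open points for control, filled points for arsenite and lines for group means. The WT mean of FOS was 7.49 CPM in control and 756 CPM in arsenite, whereas FOSL1 stayed between 1121 and 1788 CPM in all libraries and JUND was lower in arsenite in every line.

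FOS, the partner of JUN in classical AP-1, showed the widest difference. Its WT level was 3.68, 6.11 and 12.7 CPM in control and 709.9, 718 and 839.8 CPM in arsenite, with means of 7.49 ± 4.66 and 756 ± 72.7 CPM (SD, n = 3), or 101-fold. The ratio was 82.4-fold in Y396E, 88.9-fold in S181E and 161-fold in RQ, and the treatments were apart in every line. FOS exceeded 10 CPM in only 3 of 12 control libraries and so passed the filter through the arsenite libraries.

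FOSB, a second FOS-family protein, went from 52.4, 88.5 and 91.5 CPM to 786, 827 and 923 CPM in WT. That was 10.9-fold, and the other lines lay between 10.7 and 14.2-fold. FOSL1, which encodes FRA-1, was abundant in control already, at 1488, 1572 and 1788 CPM in WT. In arsenite it was at 1393, 1435 and 1495 CPM, which overlaps control, and the ratio of means was between 0.795 and 0.912 in the 4 lines.

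JUN stood at 23.9, 29.7 and 33.1 CPM in WT control and at 214, 244 and 286 CPM in WT arsenite. The ratio was 8.58-fold in WT, 7.88-fold in RQ, 16.8-fold in Y396E and 18.0-fold in S181E. JUNB, whose product also pairs with FOS proteins, differed less, at 92.7, 93.8 and 97.7 CPM in WT control and 233, 245 and 255 CPM in WT arsenite. Its ratio was 2.58-fold in WT and 3.90-fold in RQ. JUND, the JUN-family member usually present in unstimulated cells, was at 360.0, 369 and 398 CPM in WT control and at 215, 225 and 247 CPM in WT arsenite, a ratio of 0.610. The ratio of JUND was 0.790 in RQ, and in no line was it above 1.

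ATF3, a stress-induced bZIP factor that can dimerise with JUN proteins, went from 29.7, 32.9 and 44.6 CPM to 176, 183 and 199.6 CPM in WT, 5.22-fold. RQ showed 9.11-fold and Y396E 3.72-fold.

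EGR1 was the most abundant of the 10 in arsenite. WT libraries held 635, 712 and 797 CPM in control and 6728, 6801 and 7286 CPM in arsenite, a ratio of 9.71. EGR2 went from 17.3, 20.0 and 24.8 CPM to 239.6, 260.4 and 275 CPM in WT, or 12.5-fold, against 24.2-fold in RQ. EGR3 went from 18.1, 24.1 and 40.0 CPM to 176, 178 and 187 CPM, 6.58-fold in WT and 3.06-fold in Y396E. No control library reached the arsenite libraries of its line for any EGR gene.

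The parental cells, which lack the fusion, showed the same direction for the 8 genes in their background RIP. FOS and FOSB had 0 counts in the shallow parental control library and 29373 and 45552 in arsenite. Against a floor of 3 counts these were 628-fold and 974-fold higher. EGR2 and EGR3 were also at 0 counts in control and were 80.6-fold and 15.4-fold higher in arsenite against that floor. ATF3 went from 1 to 5592 counts, a ratio of 359 with a 95% counting interval of 64.3 to 14164 (exact Poisson), and EGR1 from 7 to 41992 counts (385-fold, 187 to 957). JUN was 25.7-fold higher (19.0 to 35.7) and JUNB 2.64-fold (2.29 to 3.06), whereas FOSL1 was at 0.576 (0.529 to 0.628). JUND, lower in all mCherry lines, was at 1.18 (1.05 to 1.33). These intervals and floors cover counting error only.

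**Figure D2:**
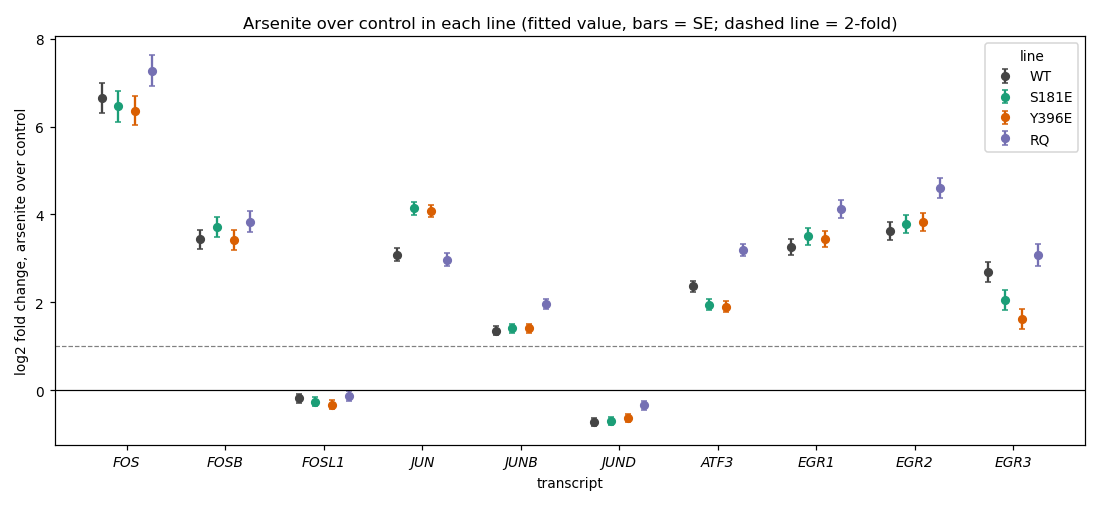
Fitted log2 fold change of arsenite over control for each transcript in each line (points, with SE as bars), with a dashed line at 2-fold. JUN was at 3.09 in WT and 4.15 in S181E, EGR3 at 2.69 in WT and 1.62 in Y396E, and FOSL1 and JUND were below 0 in all 4 lines.

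Together the 10 transcripts took 0.224 to 0.286% of protein-coding counts in the control libraries and 0.843 to 1.12% in arsenite. EGR1 alone made up 0.468 to 0.661% in arsenite. Per kb of exon, the order of levels in WT control was FOSL1 (933 CPM per kb), EGR1 (228), JUND (195), JUNB (51.8), ATF3 (14.9), FOSB (14.0), JUN (8.88), EGR2 (6.66), EGR3 (5.92) and FOS (2.60). EGR1 overlapped JUND across libraries, and from ATF3 downward each gene overlapped its neighbour. In WT arsenite the order was EGR1 (2212 CPM per kb), FOSL1 (832), FOS (262), FOSB (152), JUNB (133), JUND (119), EGR2 (83.2), ATF3 (77.6), JUN (76.2) and EGR3 (39.0). There JUNB overlapped JUND, and EGR2, ATF3 and JUN overlapped in turn.

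Differences between the IGF2BP1 mutants and WT within a treatment were tested by the quasi-likelihood method of edgeR, with p-values adjusted over all 8734 genes (Benjamini-Hochberg). The genes were chosen for the arsenite contrast, but from the levels of these same libraries and with earlier results known. The tests are therefore not independent of the choice. Calls needed an adjusted p below 0.05 together with a difference exceeding 20%. These p-values measure the spread between dishes of a line. Every mutant was set against the same WT libraries. In control, 4 of the 10 were called for S181E (all lower), 4 for Y396E (3 lower, ATF3 higher) and 3 for RQ (all lower), beside 20.8%, 28.9% and 6.34% of all genes. In one direction the shares of all genes were 8% lower for S181E, 12.7% lower and 16.2% higher for Y396E, and 2.83% lower for RQ. In arsenite, 2 were called for S181E and 3 for Y396E, all lower, and 0 for RQ, beside 7.53%, 32.5% and 0.504% of all genes (5.34% and 19.4% lower for S181E and Y396E). With the replicate number as a block, which pairs samples that deviated together there, 4 were called for S181E in arsenite. For RQ in arsenite 2 of the 10 had an unadjusted p under 0.05 with edgeR, and DESeq2 called 1, ATF3. For Y396E the members' counts were near the share of all genes. The members' median log2 fold change over WT was -0.43 for S181E, -0.19 for Y396E and -0.24 for RQ in control, against 0.05, 0.05 and 0.03 over all genes, and -0.25, -0.06 and 0.17 in arsenite, against 0.01, 0.01 and -0.01.

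JUN differed most in control. S181E libraries held 11.1, 12.4 and 13.2 CPM and Y396E libraries 13.1, 15.6 and 16.6 CPM, all below the lowest WT library (23.9 CPM). RQ libraries, at 29.9, 32.2 and 34.0 CPM, overlapped WT. The log2 fold change was -1.23 ± 0.14 (SE) for S181E (edgeR adjusted p = 1.7e-06) and -0.92 ± 0.14 for Y396E (2.8e-05), and for RQ 0.15 ± 0.13 (adjusted p = 0.55, 95% interval -0.11 to 0.41). In arsenite the groups overlapped: JUN was at 197, 216 and 249 CPM in S181E and at 233, 242 and 286 CPM in Y396E, with log2 fold changes of -0.18 ± 0.13 (edgeR adjusted p = 0.49) and 0.06 ± 0.13 (0.72).

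EGR3 differed most in arsenite. In control its S181E (15.8, 18.0 and 20.7 CPM) and Y396E (17.8, 18.0 and 26.6 CPM) libraries overlapped WT. The control log2 fold changes were -0.60 ± 0.23 (edgeR adjusted p = 0.062) and -0.40 ± 0.22 (0.18). The S181E control difference of EGR3 was called with the replicate block (-0.59, edgeR adjusted p = 0.020), with DESeq2, without a filter on low counts, and without WT library 2 or 3 (-0.83 to -0.20 over the 6 fits that left out 1 library), and that of Y396E without WT library 2 (-0.63 to -0.00). In arsenite S181E held 64.2, 73.3 and 91.4 CPM and Y396E 62.0, 63.3 and 65.6 CPM, all below the WT libraries, whereas RQ, at 170.3 and 222 CPM, spanned them. The log2 fold change was -1.24 ± 0.21 for S181E (edgeR adjusted p = 0.00043) and -1.47 ± 0.21 for Y396E (1.8e-05), that is 0.423 and 0.360 times the WT level.

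EGR1 was lower than WT in all 3 mutants in control. S181E held 361, 424 and 553 CPM, Y396E 344, 479 and 509 CPM and RQ 283, 395 and 479 CPM, each below the lowest WT library (635 CPM). The log2 fold changes were -0.67 ± 0.17 for S181E (edgeR adjusted p = 0.0074), -0.67 ± 0.17 for Y396E (0.0049) and -0.89 ± 0.17 for RQ (0.0036). The RQ control call was lost with only the groups of the contrast in the model. In arsenite Y396E stayed lower, at 4385, 4603 and 5408 CPM (-0.50 ± 0.17, edgeR adjusted p = 0.027), a call that was lost on leaving out WT library 1 or 3 or Y396E library 1 or 2 (log2 fold change -0.60 to -0.44 over all 6 such fits). S181E in arsenite, at 4771, 5322 and 5353 CPM, also lay below every WT library. It was not called in the main fit (-0.43 ± 0.17, edgeR adjusted p = 0.14) and was called with the replicate number as a block (-0.44, 0.0061). The RQ libraries in arsenite, at 6447 and 7073 CPM, overlapped WT.

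EGR2 was called in RQ control, where the libraries held 8.04, 12.6 and 14.9 CPM, all below WT. Its log2 fold change there was -0.82 ± 0.20 (edgeR adjusted p = 0.018), and it was no longer called without WT library 1 or RQ library 2 (-0.99 to -0.61 over the fits that left out 1 library). This call was also lost with only the groups of the contrast in the model. In S181E control EGR2 was called only with the replicate block (-0.41, edgeR adjusted p = 0.028, against -0.39 and 0.17 without).

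JUND was lower in the phosphomimetic mutants in both treatments. In control it was at 218, 223 and 266 CPM in S181E and 228, 242 and 256 CPM in Y396E, and in arsenite at 135, 148 and 159 CPM and 144, 159 and 162 CPM, in each case below every WT library of that treatment. The control log2 fold changes were -0.66 ± 0.09 for S181E (edgeR adjusted p = 2.6e-05) and -0.62 ± 0.09 for Y396E (3.4e-05). In arsenite they were -0.64 ± 0.09 (edgeR adjusted p = 6.7e-05) and -0.53 ± 0.09 (0.00015). The RQ libraries lay just below WT in control (339 to 357 CPM) and above it in arsenite (263 and 285 CPM), and neither difference was called (-0.12 ± 0.09, edgeR adjusted p = 0.49, and 0.26 ± 0.10, 0.37).

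JUNB was lower in control in S181E, with libraries at 59.0, 77.4 and 86.3 CPM, and in RQ, at 68.3, 70.9 and 72.1 CPM, all below the WT libraries. The log2 fold changes were -0.34 ± 0.10 (edgeR adjusted p = 0.020) and -0.43 ± 0.10 (0.017). The S181E call was lost without S181E library 3 and the RQ call without RQ library 2. The RQ call was also lost with only the groups of the contrast in the model. In arsenite S181E held 193, 200.1 and 207 CPM, below WT. This difference was not called without the replicate block and was called with it (-0.29 in both fits, edgeR adjusted p = 0.085 and 0.038). More members were also called for S181E in arsenite with only the groups of the contrast in the model.

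ATF3 was the one member called higher. Its Y396E control libraries held 44.2, 47.7 and 56.3 CPM, of which the lowest lay just under the highest WT library (44.6 CPM), with a log2 fold change of 0.48 ± 0.12 (edgeR adjusted p = 0.0055) that was lost without Y396E library 1. In arsenite the RQ libraries held 269 and 277 CPM, above all WT libraries, with a log2 fold change of 0.56 ± 0.13 that missed the threshold (edgeR adjusted p = 0.052) and passed it with the replicate block (0.54, 0.018). FOS, FOSB and FOSL1 were not called in any mutant in the fit without the replicate block and with all libraries. FOSB in S181E control (-0.47 ± 0.21, edgeR adjusted p = 0.11) was called with the block (adjusted p = 0.035), without a filter on low counts, and without WT library 2 (-0.69). The same WT library, left out, gave a call of FOS in Y396E control (0.88 against 0.34), and leaving out Y396E library 3 gave one of FOSL1 in Y396E arsenite (-0.31 against -0.23). The 95% intervals were narrow for FOSL1 in control (S181E -0.16 to 0.24) and wide for FOS in control (S181E -0.73 to 0.58). RQ arsenite libraries of FOS (1015 and 1078 CPM) were above all WT libraries, at a log2 fold change of 0.48 ± 0.29 (edgeR adjusted p = 0.65).

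**Figure D3:**
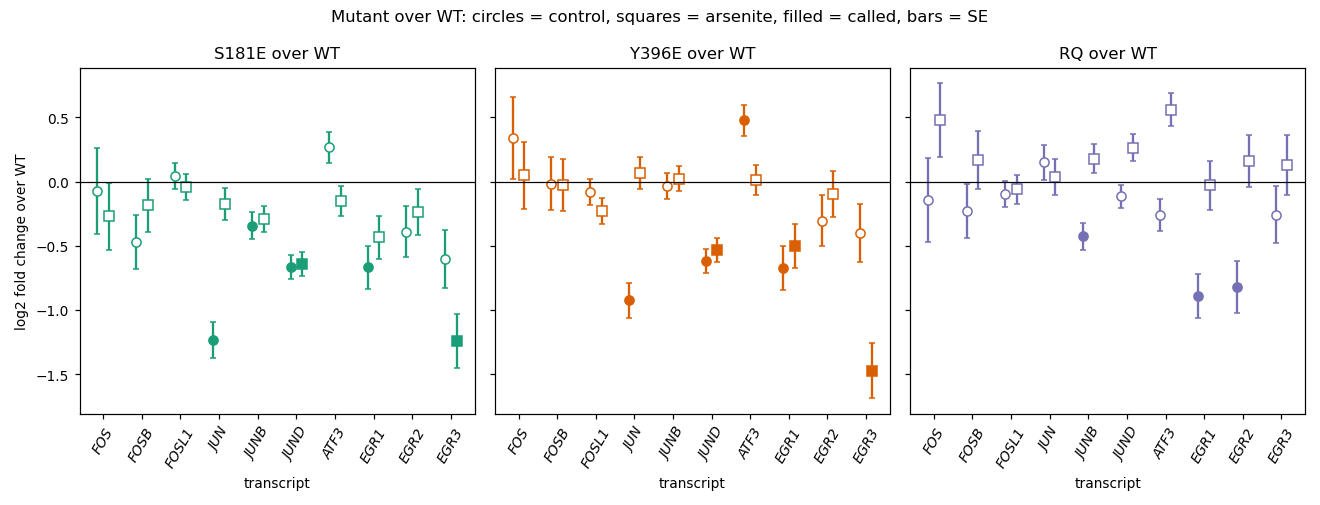
Log2 fold change of each mutant over WT (points, with SE as bars) for the 10 transcripts, with circles for control, squares for arsenite and filled symbols for called genes. JUN fell in control for S181E and Y396E, EGR3 fell in arsenite for the same mutants, and JUND fell in both treatments.

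The 2 phosphomimetic mutants were then set against each other. In control 0 of the 10 were called with edgeR, beside 10.1% of all genes, and 3 had an unadjusted p under 0.05. With the replicate block, which pairs these samples, FOSB (0.48, edgeR adjusted p = 0.041) and JUNB (0.31, adjusted p = 0.024) were called higher in Y396E, and DESeq2 called 1. In arsenite JUNB was called higher in Y396E, at 234, 236 and 259 CPM against 193, 200.1 and 207 CPM, the 1 member called beside 11.8% of all genes (2.59% higher). This difference of 0.32 ± 0.10 (edgeR adjusted p = 0.043) was no longer called on leaving out any 1 of the 6 libraries (0.26 to 0.33). For JUN the difference was 0.31 in control (95% interval 0.03 to 0.59, edgeR adjusted p = 0.15) and for EGR3 in arsenite -0.23 (-0.64 to 0.18, adjusted p = 0.47).

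Whether the arsenite effect differed between a mutant and WT was tested as an interaction, which contains the arsenite contrast by which the genes were chosen. For JUN the effect was larger by 1.06 ± 0.19 on the log2 scale in S181E (edgeR adjusted p = 0.029) and by 0.99 ± 0.19 in Y396E (0.0042), so that the libraries that were apart in control met in arsenite. JUN was the 1 member called in each of these tests, beside 0.389% and 2.85% of all genes (0.114% and 0.447% in this direction). The S181E call was lost on leaving out S181E control library 1, WT arsenite library 1 or 2, or S181E arsenite library 2 or 3 (0.96 to 1.18 over the 12 such fits), and the Y396E call was not lost in any of its 12. For EGR3 in Y396E the arsenite effect differed by -1.07 ± 0.31 without a call (edgeR adjusted p = 0.059), although it was called with the replicate block (adjusted p = 0.0074) and without WT control library 1. In RQ 0 members were called with edgeR, beside 0.0687% of all genes, although 5 had an unadjusted p under 0.05. EGR1 (0.86 ± 0.25, adjusted p = 0.25), EGR2 (0.99 ± 0.28, 0.25), ATF3 (0.82 ± 0.18, 0.080) and JUNB (0.60 ± 0.15, 0.16) were among these by edgeR, and DESeq2 called all 4.

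Enrichment was described by dividing a group's mean CPM by that of the parental RIP under the same treatment, against a 4-fold threshold and with no test, since each treatment had 1 parental library. In arsenite, FOSL1 was 6.23-fold over the parental RIP in WT, 6.07-fold in S181E, 5.20-fold in Y396E and 5.95-fold in RQ. EGR3 was 5.79-fold in WT and 6.31-fold in RQ, but 2.45-fold in S181E and 2.04-fold in Y396E. EGR1 lay just under the threshold in WT (3.82) and RQ (3.72), and further below in S181E (2.83) and Y396E (2.64).

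Most of the induced transcripts were at or below the parental level. JUN was at 0.340 of the parental level in WT arsenite, FOSB at 0.429, FOS at 0.595, JUNB at 0.721 and ATF3 at 0.770. EGR2 was at 1.58 and JUND at 0.995. At least 4-fold were 2 members in WT, 1 in S181E, 1 in Y396E and 2 in RQ, beside 9.18%, 8.24%, 6.14% and 8.36% of all genes. Below the parental level were 6, 6, 6 and 4 members, beside 43%, 42.6%, 43.5% and 42.2%. With total counts in place of TMM, FOSL1 was at 3.78 and EGR3 at 3.52 in WT arsenite, both under 4-fold. EGR2 was then at 0.962 in WT and 0.913 in S181E, and JUND in RQ went from 1.19 to 0.768 and ATF3 in RQ from 1.13 to 0.730.

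In control the parental library was too shallow for most members. FOS, FOSB, EGR2 and EGR3 had 0 counts there, replaced by a floor of 3 counts (2.02 CPM). Against that floor FOSB was 38.3-fold and EGR3 13.5-fold higher in WT. The exact Poisson 95% upper end for 0 counts was higher, at 2.49 CPM. EGR1, with 7 parental counts (4.72 CPM, exact Poisson 95% interval 1.90 to 9.73), was 151-fold higher in WT and 81.6-fold in RQ. FOSL1 was 4.02-fold, JUND 1.93-fold, JUN 1.02-fold and JUNB 0.739-fold. At least 4-fold were 6 members in WT, beside 47.7% of all genes.

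**Figure D4:**
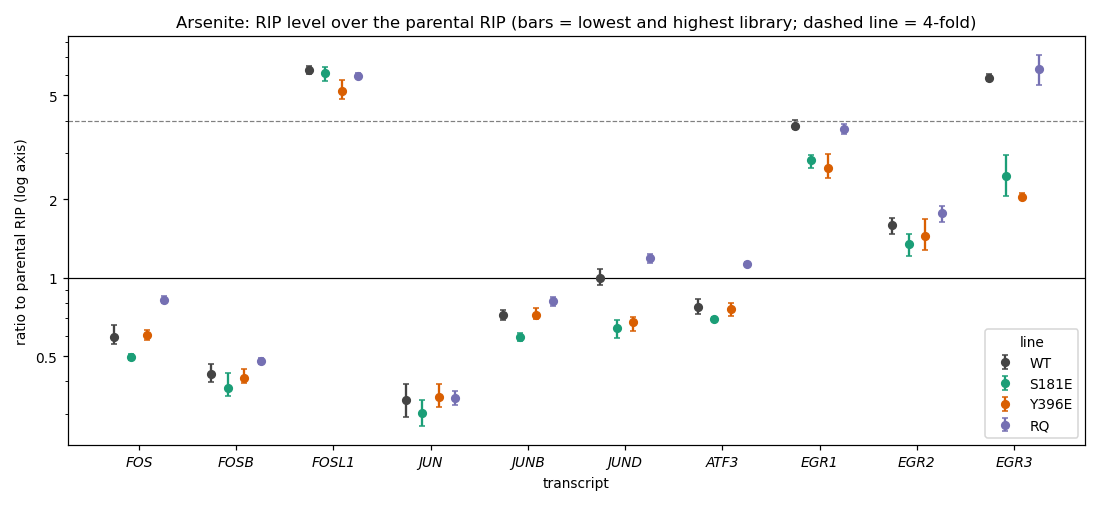
Ratio of the arsenite RIP level to the parental arsenite RIP (log axis) for each transcript and line, as the group mean with bars from the lowest to the highest library, with lines at 1 and at 4-fold. FOSL1 lay above 4-fold in all 4 lines and EGR3 in WT and RQ, while JUN, FOSB and FOS lay below 1.

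Other genes of the pathway were counted from lists. Of 15 partners of AP-1 and EGR proteins, 8 were tested, and none rose in WT arsenite while 6 fell, with a median log2 fold change of -0.86 against 0.03 over all genes. The 6 included FOSL2, a further FOS-family gene (-2.29, edgeR adjusted p = 1.6e-12), the small MAF genes MAFG (-2.16, 1.3e-12) and MAFK (-0.98, 2.8e-06), and NAB1, a corepressor of EGR1 (-1.54, 1.6e-10). In WT arsenite 35.4% of all genes were called higher and 31.8% lower. FOSL2 was also lower in S181E control (-0.59, edgeR adjusted p = 0.0024), NAB2 in S181E arsenite (-0.43, 0.018) and ATF7 in Y396E arsenite (-0.45, 0.019).

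Of 35 other immediate early genes, 32 were tested, and in WT arsenite 15 rose and 10 fell (median 0.26). Of all genes, 35.4% were called higher there and 31.8% lower. The phosphatase genes DUSP1 (2.87, edgeR adjusted p = 5.8e-13) and DUSP2 (2.68, 9.0e-12), which switch off MAP kinases, rose most, followed by PHLDA1 (1.81, 3.7e-12) and the neuronal activity gene ARC (1.70, 5.9e-11). In S181E control 15 were lower and 1 higher, with a median log2 fold change of -0.33 against 0.05 over all genes, beside 8% and 12.8% of all genes. In Y396E control 11 were lower and 5 higher, beside 12.7% and 16.2%. TRIB1, a pseudokinase gene, was lower in Y396E control (-1.69, edgeR adjusted p = 1.4e-08), as were NR4A2, an orphan nuclear receptor gene, in Y396E arsenite (-1.28, 1.1e-07) and ZFP36, whose product destabilises AU-rich mRNAs, in Y396E control (-0.94, 4.0e-07).

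Of 28 kinases and factors upstream, 27 were tested. In WT arsenite 6 rose and 11 fell, beside 35.4% higher and 31.8% lower among all genes. Among those that fell were ELK4 (-1.47, edgeR adjusted p = 1.3e-11), ELK3 (-1.42, 3.6e-08) and SRF (-1.37, 3.5e-10). The kinase gene RPS6KA1 rose (1.37, edgeR adjusted p = 3.3e-05). They were named for the largest changes of the list, and other CArG-box regulators in it are not described here. In Y396E, the kinase gene RPS6KA4 was higher in control (0.98, edgeR adjusted p = 1.5e-05) and ELK4 was lower in arsenite (-0.71, 9.7e-06). All 16 genes for proteins that act on AU-rich mRNAs were tested. In WT arsenite 9 rose and 6 fell, beside the same 35.4% and 31.8% of all genes. PAN2, a deadenylase subunit gene (2.20, edgeR adjusted p = 1.6e-07), HNRNPD (1.70, 2.9e-09), TIA1, a stress granule protein gene (1.49, 4.9e-10), and KHSRP (1.05, 4.1e-08) rose. ZFP36L1, a relative of ZFP36, was lower in Y396E arsenite (-0.72, edgeR adjusted p = 4.2e-05) and YBX1 in S181E control (-0.63, 0.00010).

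Over the 23 mCherry libraries, which share the treatment step, the standardised profile of the 10 genes was most closely followed among non-members by FASN (Pearson r = 0.99), GRIN2D (0.99), LENG8 (0.98), SERTAD3 (0.98) and DGKA (0.98). FOSL1 (-0.50) and JUND (-0.48) ran against the mean profile, while the other 8 members had r between 0.95 and 0.98. Within the 11 arsenite libraries the closest were ASIC1 (0.98), NTSR1 (0.96), ADGRL1 (0.96), CAMTA2 (0.96) and PRRC2A (0.96). There JUND followed the mean (0.89) and FOSL1 less so (0.40). Each member was itself part of the mean profile, which raises its r. The genes were also chosen for the arsenite contrast, the step that the 23 libraries share. These correlations describe the libraries and carry no test.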

How the data were processed

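Raw counts per gene were deposited by the authors for each RIP library. They demultiplexed with bcl2fastq 2.20.0.422, checked reads with FastQC 0.11.9, aligned to hg38 with STAR 2.7.11b allowing 2 mismatches, and counted exonic reads on the reverse strand with featureCounts (Subread 2.0.6, GENCODE basic annotation, per the file headers). Symbols and biotypes came from another GENCODE release: 62541 of 63086 identifiers were found. No gene on the same strand overlapped a member. FOSB and EGR3 each overlap 1 gene on the opposite strand.

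The 10 genes, the gene lists and the tests were chosen with earlier results of these data known. Protein-coding counts were TMM-scaled, genes were kept where at least 11.5 of 23 mCherry libraries exceeded 10 CPM, and 1 model of 8 groups without covariates was fitted (edgeR 4.0.16, limma 3.58.1, DESeq2 1.42.0, R 4.3.3). The scripts were tested on simulated data. Tables and figures used Python 3.11.15, pandas 2.3.3 and matplotlib 3.10.9. Levels used TMM over all 25 libraries, and parental counts of 0 were set to 3 for ratios. Correlations used log2(CPM + 0.5). Named list genes were the up to 4 with the largest WT arsenite change per list and up to 3 called in a mutant by smallest adjusted p, plus the 5 most alike genes. A gene that this rule names is not reported here.

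Replicate numbers were taken as pairs where samples of the same number deviated together (every r over 0.1): S181E against WT in arsenite (0.286 to 0.396) and Y396E against S181E in control (0.122 to 0.567). RNA-seq libraries were not used here. Alternatives were other scalings, filters, DESeq2, a replicate block and leaving out single libraries.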

Additional observations from a re-analysis of the deposited data

Results flagged for a closer look

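The arsenite effect on JUN differed between lines by the interaction test, which contains the arsenite contrast by which the genes were chosen. The effect was larger than in WT by 1.06 on the log2 scale in S181E (edgeR adjusted p = 0.029) and by 0.99 in Y396E (0.0042). In control all 6 S181E and Y396E libraries lay below the 3 WT libraries, and in arsenite the 3 groups overlapped. Both comparisons use the same 6 WT libraries. The S181E call held in 7 of the 12 fits that left out 1 library, and the Y396E call in 12 of 12. The S181E call was lost with only the groups of the contrast in the model. It was also lost with TMM over genes whose mCherry RIP was not above parental. Against the parental RIP, JUN was at 1.02 in WT control, 0.432 in S181E control and 0.532 in Y396E control. In arsenite it was at 0.340, 0.302 and 0.348 of the parental level (WT, S181E and Y396E). The part of the background in this difference was not tested. Mitochondrial rRNA also differed between the treatments, and its part in this result was not tested.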

How the results depend on the processing

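Of 2305 values of single members under alternative settings, 2156 kept their side of the threshold or, without a test, stayed within the SE. A further 36 lost a call and 53 gained one. Another 60, values without a test, moved by more than the SE of the fitted log2 fold change. In direction, 0 called values turned. Among the 2156, the sign of 88 changed without a call. Counts of members called by edgeR changed as follows, and the causes were not tested. With the replicate number as a block, S181E against WT had 7 calls in control (4 without) and 4 in arsenite (2), RQ against WT in arsenite 1 (0), Y396E against S181E in control 2 (0), the Y396E interaction 2 (1) and the RQ interaction 3 (0). The block changed no other count by over 1.5 times. With only the groups of the contrast in the model there were 5 calls for S181E in arsenite, 0 for RQ in control (3 in all-group fits), 2 for RQ in arsenite, 3 for Y396E against S181E in arsenite (1) and 0 for the S181E interaction (1). DESeq2's Wald test gave 1 call for RQ in arsenite, 1 for Y396E against S181E in control, 2 for the Y396E interaction and 4 for the RQ interaction. Total counts gave 1, 1 and 2 for the first 3 of these, no filter (16940 genes) 1 for RQ in arsenite and 2 for the Y396E interaction, and all biotypes (7753 genes) 1 for Y396E against S181E in control and 2 for the Y396E interaction. The JUNB call between Y396E and S181E in arsenite went to 0 with DESeq2 size factors, TMM over 1532 parental-level genes (mCherry RIP not above parental), filterByExpr (13417 genes) and no filter, and the JUN call of the S181E interaction to 0 with that TMM. Total counts moved the all-gene median (log2 fold change) to 0.22 and 0.17 for S181E and to 0.32 and 0.23 for Y396E (control and arsenite), and TMM over parental-level genes to -0.13 and -0.26 for Y396E and to between -0.42 and -0.28 for arsenite over control.

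Enrichment of at least 4-fold in arsenite (2 members in WT, 1 in S181E, 1 in Y396E, 2 in RQ) went with total counts to 0 in WT, 0 in Y396E and 1 in RQ, at 8-fold to 0 in all 4 lines, and at 2-fold to 3 in S181E and 3 in Y396E. Leaving out 1 library at a time gave 3 to 6 calls for S181E and 3 to 6 for Y396E in control, 2 to 2 and 2 to 4 in arsenite, 1 to 3 for RQ in control and 0 to 0 in arsenite, 0 to 1 for Y396E against S181E in control and 0 to 0 in arsenite, and 0 to 2, 1 to 3 and 0 to 1 for the S181E, Y396E and RQ interactions. The 8 members above 2-fold in all lines stayed 8. Depth limits the parental control library, where 3 counts were 2.02 CPM, and low control levels of FOS.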
